A study of Homo sapiens with 53 samples.

Results

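The human globin genes lie in 2 clusters, and peaks of CTCF, MBD3, TET1, TET2 and TET3 in both were taken from chromatin immunoprecipitation sequencing of HEK293T cells, a human embryonic kidney line. The β-globin window, chr11:5220000-5320000 in the genome build hg19, holds HBB, HBD, HBG1, HBG2 and HBE1 with the flanking hypersensitive sites. The α-globin window, chr16:150000-240000, holds HBZ, HBA2 and HBA1 with the upstream enhancers. Every peak that overlapped a window in any of the 10 deposited lists was kept, which gave 107 of 706206 peaks. Runs of overlapping peaks across the lists were joined into 53 sites, of which 8 lay in the β-globin window and 45 in the α-globin window. The clusters are described here for all 8 globin genes named above.

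Cells received BPK-25 at 30 µM or the solvent DMSO, each for 72 h. CTCF and MBD3 were immunoprecipitated from the parental HEK293T cells with antibodies against these proteins. TET1, TET2 and TET3 were immunoprecipitated with an antibody against Flag from HEK293T lines that carry the tagged protein, so the TET lists do not report the untagged enzymes. The labels give 3 replicates of each immunoprecipitate group, except 2 for TET2 under DMSO, but 1 list per group. Each list was read as 1 call on all replicates of its group together, so differences between BPK-25 and DMSO have no replicate check and carry no test. The labels give CTCF and MBD3 1 common set of inputs per treatment, so their lists are not independent.

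The α- and β-globin genes encode the chains of haemoglobin and are transcribed in erythroid cells, from embryonic genes (HBZ, HBE1) through fetal ones (HBG1, HBG2) to adult ones (HBA1, HBA2, HBB, HBD). Outside that lineage both clusters are known as silent, and CTCF, the zinc-finger protein of insulators and loop anchors, is known to bind at their borders. MBD3 is a subunit of the NuRD remodelling and deacetylase complex, and the TET enzymes oxidise 5-methylcytosine. No expression was measured in the files used here, so the silence of the globin genes in these cells was not checked. The clusters are also known for opposite base composition, CpG-poor around the β-globin genes and CpG-rich around the α-globin genes.

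The 250 bases upstream of 1 gene per cluster are printed to show what CpG-poor and CpG-rich sequence looks like; 2 genes do not measure the composition of the clusters. HBD, the δ-globin gene on chromosome 11, was the 1 of the 8 genes that matched the RefSeq promoter table (GRCh38.p14). HBM, the µ-globin gene of the α cluster on chromosome 16, is no member of the set of 8 and was picked to stand beside it as a CpG-rich example. Capitals mark CpG dinucleotides, and both sequences run 5′ to 3′ on the strand of the gene.
HBD: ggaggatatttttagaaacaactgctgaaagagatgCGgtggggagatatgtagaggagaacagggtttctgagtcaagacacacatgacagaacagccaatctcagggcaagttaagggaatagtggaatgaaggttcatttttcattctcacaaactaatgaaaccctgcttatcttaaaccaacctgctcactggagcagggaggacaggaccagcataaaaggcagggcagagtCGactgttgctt
HBM: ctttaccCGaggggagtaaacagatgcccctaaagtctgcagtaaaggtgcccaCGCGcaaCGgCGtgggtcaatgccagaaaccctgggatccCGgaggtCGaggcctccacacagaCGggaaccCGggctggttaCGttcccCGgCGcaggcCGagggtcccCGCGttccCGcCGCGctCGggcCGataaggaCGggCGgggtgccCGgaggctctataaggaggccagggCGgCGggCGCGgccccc
HBD had 2 CpG and a GC content of 45.2%, and 77.1% of all 35116 RefSeq promoters of this length held more CpG. HBM had 27 CpG and a GC content of 69.2%, and 15.9% of promoters held more. The letters CCCTC, a short run at the core of the CTCF motif, were searched on both strands. They occurred in HBM and not in HBD, and 66.6% of all promoters held them. These letters mark no binding site in themselves. HBB, HBG1, HBG2, HBE1, HBA1, HBA2 and HBZ were not matched.

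Peaks of the deposited lists differed in number and strength between treatments over the whole genome, and the windows are read against that. CTCF had 245419 peaks under BPK-25 and 99587 under DMSO, and MBD3 had 243213 and 82358 in the same order. The genome background, the lowest local background in a list and a measure of its depth, was 2.58 fragments for CTCF under BPK-25 and 3.68 under DMSO, and 2.57 and 3.21 for MBD3. Levels are therefore given as the pileup of fragments at a peak's summit divided by the genome background of its list, written as times background, with exact 95% Poisson intervals that cover counting error only. Fold enrichment is the authors' ratio of pileup to local background at the summit. Local background in the windows did not exceed 3.16 times the genome background.

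The 2 windows differed in how many peaks they held. In the β-globin window CTCF had 4 peaks under BPK-25 and 3 under DMSO, MBD3 had 3 and 0, and no TET1, TET2 or TET3 peak was called under either treatment. In the α-globin window CTCF had 31 peaks under BPK-25 and 14 under DMSO, MBD3 had 34 and 16, and TET3 had 1 and 1. TET1 and TET2 had none there. Each of HBB, HBD, HBG1, HBG2 and HBE1 was therefore without MBD3 under DMSO and without TET peaks in both treatments, at the depth of these lists.

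Peak numbers in the β-globin window were near those of other stretches of the genome, while those in the α-globin window were high. The median over 30366 tiles of 100 kb was 4 CTCF peaks under BPK-25 and 2 under DMSO, and 3 and 1 for MBD3. MBD3 peaks under DMSO were absent from 38.5% of these tiles, as they were from the β-globin window. TET1 and TET2 peaks were absent from 85.8% to 99.3% of the tiles and TET3 peaks from 73.7% to 73.9%, so their absence from the β-globin window is the usual case in these lists. Over 33738 tiles of 90 kb the medians were 3 and 2 for CTCF and 3 and 1 for MBD3. Fewer CTCF peaks than in the α-globin window occurred in 94.5% of these tiles under BPK-25 and in 98.8% under DMSO, and fewer MBD3 peaks in 95.3% and 98.1%.

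**Figure D1:**
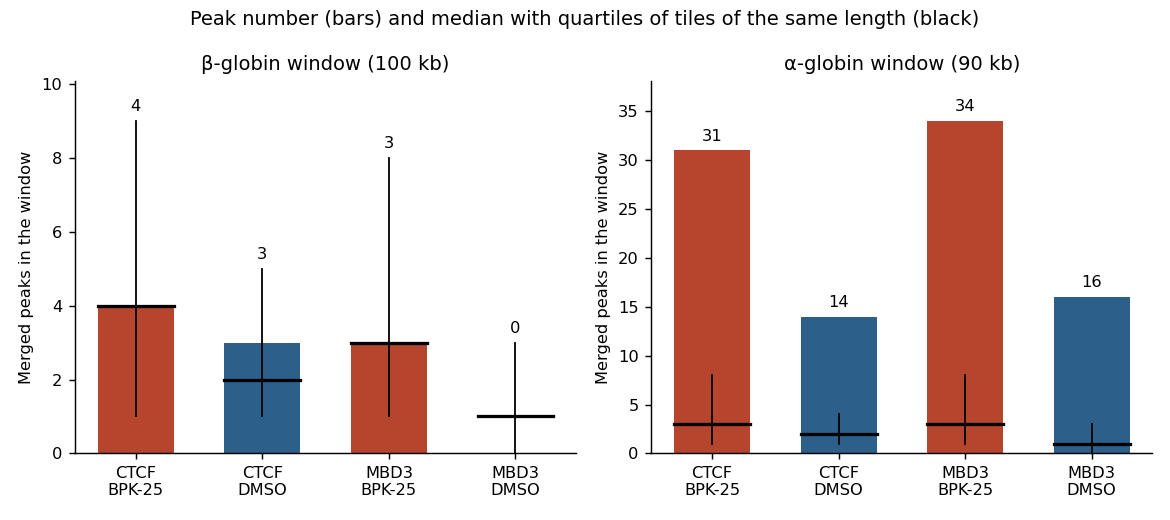
Number of merged peaks (bars) in the β-globin window and the α-globin window for CTCF and MBD3 under BPK-25 (red) and DMSO (blue), with the median (black line) and quartiles (thin line) of genome tiles of the same length. The α-globin window held 31 and 14 CTCF peaks against tile medians of 3 and 2, while the β-globin window held 4 and 3 against medians of 4 and 2.

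The high number in the α-globin window extended to its surroundings. The 90 kb below the window, towards the chromosome end, held 60 CTCF peaks under BPK-25 and 18 under DMSO, and the 90 kb above it 26 and 5. For MBD3 the numbers were 61 and 18 below and 28 and 8 above. The 100 kb on either side of the β-globin window held 1 and 1 CTCF peaks under BPK-25 and 1 and 3 under DMSO, and 1 and 2 MBD3 peaks under BPK-25 and 0 and 0 under DMSO. Within the α-globin window MBD3 was densest in the last 30 kb, from position 210001 to 240000, with 18 peaks under BPK-25 and 9 under DMSO. The first 30 kb held 8 and 2 MBD3 peaks.

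Most CTCF peaks under BPK-25 were weak, in the α-globin window as in the whole list. In that window 23 of 31 CTCF peaks under BPK-25 and 6 of 14 under DMSO had a fold enrichment under 5. The upper quartile of the CTCF list under BPK-25 was 4.73, and the lower quartile of that under DMSO was 5.26. Such peaks were thus about as common in the window as in the list under BPK-25. Under DMSO they were more common in the window, which was not tested. The longer list was also cut to as many of its strongest peaks as the shorter one held. The α-globin window then had 10 CTCF peaks under BPK-25 against 14 under DMSO, and 12 MBD3 peaks against 16. In the β-globin window CTCF then had 1 peak under BPK-25 against 3 under DMSO. The cut takes the BPK-25 lists from 245419 to 99587 CTCF peaks and from 243213 to 82358 MBD3 peaks. A fall in the windows was thus built in, and these counts do not show that their surplus was weak. With a −log10 q of at least 5 the α-globin window held 22 MBD3 peaks under BPK-25 against 12 under DMSO, and 12 CTCF peaks under each. Strong peaks, those whose fold enrichment reached 10, made up 0.942% of the CTCF list under BPK-25 and 53.2% under DMSO. In the α-globin window they numbered 2 under BPK-25 and 4 under DMSO, and in the β-globin window 0 and 2.

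On the general map of the hg19 clusters, which no annotation used here could check, the sites below can be placed as background. The 2 strong CTCF sites of the β cluster lie where the border elements 3′HS1 and HS5 are known, on either side of the genes. In the α cluster the sites between positions 156727 and 189096 lie in or at the start of NPRL3, the gene whose introns carry the distant α-globin enhancers. The sites between 202837 and 204750 lie at HBZ, that at 222941-223669 at HBA2, that at 226062-227438 at HBA1, and the strongest CTCF site, at 230183-232220, at and past HBQ1, the θ-globin gene. RefSeq lists the genes in the order NPRL3, HBZ, HBM, HBA2, HBA1, HBQ1 and LUC7L. HBA1 and HBA2 are near-identical copies, as are HBG1 and HBG2, and how fragments that map to both were counted is not given in the sources used here, so values at these genes are uncertain.

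The β-globin window had 2 strong CTCF sites under DMSO, 1 near each end, and both were without a CTCF peak under BPK-25. At chr11:5226043-5226365 no CTCF peak was called under BPK-25, against 56.0 times background under DMSO (95% interval 48.6 to 64.1), with 206 fragments and a fold enrichment of 44.2. At chr11:5312515-5312845 none was called under BPK-25, against 30.7 times background under DMSO (25.3 to 36.9), with 113 fragments and a fold enrichment of 23.5. These are ordinary strengths for CTCF, since 26.8% and 37.7% of the DMSO list had a higher −log10 q. The nearest BPK-25 CTCF summits lay 4546 bp and 2088 bp away.

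A peak at these sites would have been called under BPK-25 from 8 fragments, or 3.10 times background, if relative local background was as under DMSO. Local background under BPK-25 is not known at the sites themselves. It was 1.00 times the genome background at the BPK-25 CTCF peak nearest the first site and 1.73 at that nearest the second. At 1.74 times the genome background a call needed 11 fragments, or 4.27 times background. The level at both sites under BPK-25 was thus below a call, which is a bound on the level and not a measurement of it. Neither site overlapped an MBD3 peak under either treatment. The nearest MBD3 summit under DMSO was 389990 bp from the first and 303528 bp from the second.

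The third CTCF site of the β-globin window had peaks in both treatments. At chr11:5315579-5316113 CTCF stood at 10.5 times background under BPK-25 (6.90 to 15.2) and at 4.89 under DMSO (2.90 to 7.73). The log2 ratio was 1.10, with a counting interval of 0.24 to 1.96. By fold enrichment, which divides by local background, it was 0.32 (-0.55 to 1.18), so the difference does not hold on that scale. Local background there was 1.79 times the genome background under BPK-25 and 1.02 under DMSO. MBD3 had a peak there under BPK-25, at 11.3 times background and 18 bp from the CTCF summit, and none under DMSO. It was the 1 site of 8 in this window with peaks in both treatments and the 1 with CTCF and MBD3 together.

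The other 5 sites of the β-globin window carried 1 target each under BPK-25 and nothing under DMSO. CTCF had peaks at chr11:5221567-5221725, 5275577-5276022 and 5314686-5314845, at 4.27, 5.43 and 6.60 times background. MBD3 had peaks at chr11:5242829-5242993 and 5302427-5302599, at 7.79 and 3.90 times background. All 5 had fold enrichments between 2.95 and 3.81, far below those of the 2 DMSO border sites. The peak at 5275577-5276022, on the general map at the start of the fetal gene HBG2, was the 1 CTCF peak in the middle of the window, and no DMSO peak of any target was called between the 2 strong border sites.

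**Figure D2:**
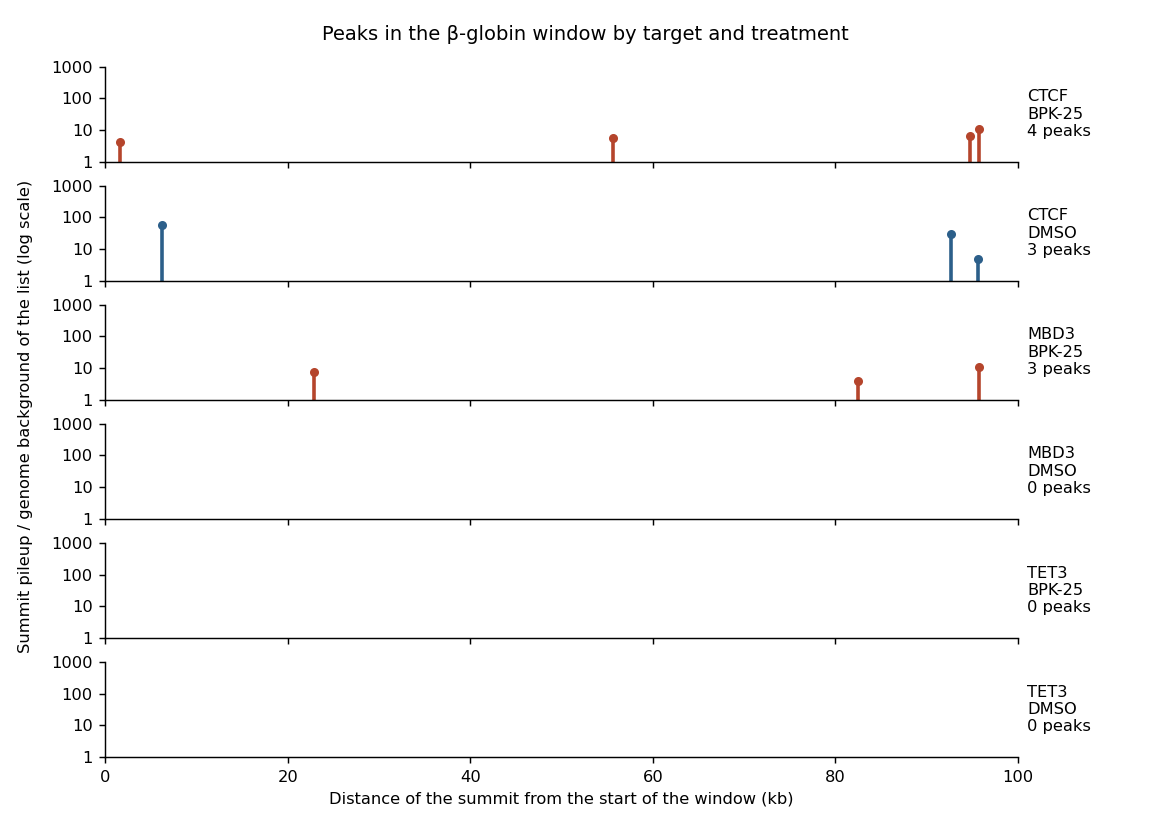
Peaks of CTCF, MBD3 and TET3 in the β-globin window under BPK-25 (red) and DMSO (blue), as summit pileup over the genome background of the list (log scale) against distance from the window's start (kb). The 2 tall DMSO CTCF peaks, at 56.0 and 30.7 times background, have no BPK-25 counterpart at the same position, and the MBD3 row under DMSO is empty.

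By overlap, 1 of 3 CTCF peaks under DMSO in the β-globin window was retained under BPK-25 (33.3%, exact Clopper-Pearson 95% interval 0.840 to 90.6), against 39.2% of the whole list. Of the CTCF peaks under BPK-25, 3 of 4 were new, against 83.3% of the list. None of the 2 strong peaks was retained (0%, upper bound 84.2), against 34.7% of the 53019 strong peaks of the list. These shares are within counting error of the background and say nothing particular to the β cluster. All 3 MBD3 peaks under BPK-25 were new, against 78.2% of that list.

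The α-globin window held 4 strong CTCF sites under DMSO, and at each the level under BPK-25 was far lower or no peak was called. These sites were picked by their DMSO level, and the share of all strong CTCF peaks with such a fall was not computed. Over the 38839 CTCF peaks shared in the whole lists, the median log2 ratio was -0.87 and the lower quartile -3.42. The strongest of the 4 sites, at chr16:230183-232220, stood at 17.1 times background under BPK-25 (12.4 to 22.9) and at 586 under DMSO (561 to 611). Its log2 ratio was -5.10 (-5.53 to -4.67). Its DMSO peak held 2157 fragments at the summit and had a fold enrichment of 318. No more than 0.382% of CTCF peaks under DMSO had a higher −log10 q. The BPK-25 summit of highest −log10 q lay 790 bp from the DMSO summit, and another of the same 17.1 times background lay 58 bp from it. The ratio holds for the main DMSO summit and not for the whole site. At position 230788 CTCF stood at 17.1 under BPK-25, against 11.7 under DMSO at 230780. At 231102 it stood at 6.21 under BPK-25, against 4.62 under DMSO at 231067. The DMSO summit at 230366, at 26.9, had its nearest BPK-25 CTCF summit 422 bp away.

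The other 3 strong sites lay outside the globin genes, 2 upstream and 1 at the far end of the window. At chr16:156727-157473 CTCF stood at 6.21 times background under BPK-25 and at 186 under DMSO (173 to 201), a log2 ratio of -4.91 (-5.62 to -4.19). The BPK-25 summit was 279 bp from the DMSO summit, so the DMSO summit position itself carried none within 200 bp. At chr16:167543-168291 CTCF stood at 8.54 times background under BPK-25 and at 174 under DMSO (161 to 188), a log2 ratio of -4.35 (-4.96 to -3.73), with summits 65 bp apart. At chr16:238538-239009 no CTCF peak was called under BPK-25, against 38.3 times background under DMSO (32.2 to 45.2), and the nearest BPK-25 summit was 740 bp away.

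Of these 4 strong sites, 3 were retained by overlap (75%, 19.4 to 99.4), against 34.7% of the strong peaks of the list. With a BPK-25 summit required within 200 bp, 2 of 4 were retained, against 28.2% of the list. Retention counts a site whatever its level: the 3 retained ones stood at 6.21 to 17.1 times background under BPK-25 and at 174 to 586 under DMSO. MBD3 overlapped 2 of the 4 under DMSO, against 36.9% of strong CTCF peaks in the list, and 0 of 2 in the β-globin window.

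At the 2 strong CTCF sites where MBD3 had a peak in both treatments, the log2 ratios of MBD3 were smaller in size than those of CTCF. The choice of sites favours this, since it asked for a strong CTCF peak under DMSO and an MBD3 call in both lists. MBD3 also stood nearer the limit of a call under DMSO, so its called peaks could fall less. The ratios therefore do not show whether MBD3 was affected less than CTCF. At chr16:230183-232220 MBD3 stood at 16.4 times background under BPK-25 (11.8 to 22.1) and at 36.7 under DMSO (30.4 to 44.0), a log2 ratio of -1.17 (-1.67 to -0.66). The MBD3 summits were 34 bp apart, and this was the MBD3 peak of highest −log10 q under DMSO in either window, with 0.775% of that list above it. Elsewhere in the site MBD3 was not uniformly lower. At position 230794 MBD3 stood at 14.8 under BPK-25, against 10.6 under DMSO at 230817. At 231115 it stood at 10.1 under BPK-25, against 7.16 under DMSO at 231059. The DMSO summit at 230543, at 6.85, had its nearest BPK-25 MBD3 summit 251 bp away. At chr16:167543-168291 MBD3 stood at 10.9 times background under BPK-25 and at 9.96 under DMSO, a log2 ratio of 0.13 (-0.60 to 0.86). At chr16:156727-157473 MBD3 had a peak under BPK-25 alone, at 5.84 times background and 9 bp from the DMSO CTCF summit. No MBD3 peak was called at chr16:238538-239009 under either treatment.

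**Figure D3:**
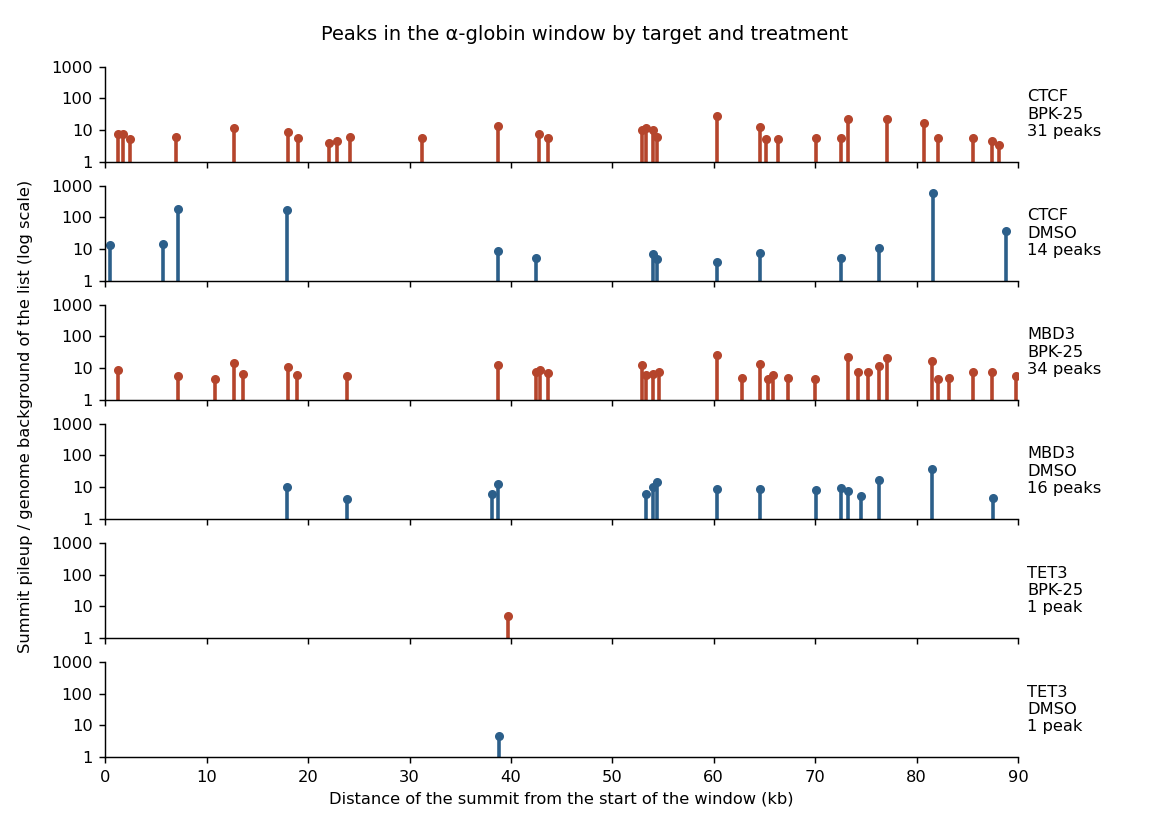
Peaks of CTCF, MBD3 and TET3 in the α-globin window under BPK-25 (red) and DMSO (blue), as summit pileup over the genome background of the list (log scale) against distance from the window's start (kb). Under DMSO 4 CTCF peaks, at 186, 174, 586 and 38.3 times background, stand above the rest, and under BPK-25 no CTCF peak exceeds 28.3.

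From HBZ to HBA1 on the general map, CTCF under DMSO did not exceed 11.1 times background, and several sites were higher under BPK-25. At chr16:222941-223669, at HBA2 on the general map, CTCF stood at 22.9 times background under BPK-25 (17.4 to 29.5) and had no peak under DMSO. That peak had a fold enrichment of 14.8, and 0.391% of CTCF peaks under BPK-25 had a higher −log10 q. MBD3 at the same site stood at 21.8 times background under BPK-25 and at 7.47 under DMSO, a log2 ratio of 1.55 (0.86 to 2.24). This was the strongest new CTCF peak under BPK-25 in either window. The adjoining site at chr16:222439-222696 held CTCF at 5.43 times background under both BPK-25 and DMSO, with MBD3 called under DMSO alone, at 9.65.

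At chr16:226062-227438, at HBA1 on the general map, both treatments had several summits within 1 site. The CTCF summits of highest −log10 q stood at 22.1 times background under BPK-25 and at 11.1 under DMSO, but lay 790 bp apart. At the DMSO position CTCF stood at 11.3 times background under BPK-25, with a log2 ratio of 0.01 (-0.67 to 0.70), so no difference was seen there. MBD3 at its DMSO summit stood at 12.1 times background under BPK-25 and at 16.5 under DMSO, a log2 ratio of -0.45 (-1.09 to 0.19). Further along, MBD3 stood at 21.0 under BPK-25 (15.8 to 27.4), at position 227065, and at 10.9 under DMSO (7.59 to 15.2), at position 227103. Local background there was 1.96 times the genome background under BPK-25 and 1.23 under DMSO. The fold enrichments were closer, at 9.14 under BPK-25 and 7.27 under DMSO. HBA1 and HBA2 thus both carried CTCF and MBD3 peaks under BPK-25, with the caveat of their shared sequence.

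Between HBZ and the α genes, at chr16:209813-210938, CTCF stood at 28.3 times background under BPK-25 (22.2 to 35.6) and at 4.07 under DMSO (2.28 to 6.72). The log2 ratio was 2.80 (2.00 to 3.60), the highest of the 10 CTCF sites shared by both treatments in this window. MBD3 stood at 25.7 times background under BPK-25 and at 8.72 under DMSO, a log2 ratio of 1.56 (0.92 to 2.20). Local background there was 2.57 times the genome background for CTCF under BPK-25 and 1.00 under DMSO, and 2.52 and 1.00 for MBD3. By fold enrichment the log2 ratios were 1.51 (0.70 to 2.31) for CTCF and 0.38 (-0.26 to 1.02) for MBD3, so that of MBD3 no longer lay above 0. At chr16:213954-214710 CTCF stood at 12.4 times background under BPK-25 and at 7.33 under DMSO, and MBD3 at 13.6 and 8.72. The counting interval of that CTCF log2 ratio, 0.02 to 1.50, came close to 0 and by fold enrichment held it (-0.17 to 1.31), as did that of MBD3, -0.07 to 1.36.

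At the embryonic gene HBZ on the general map, 4 sites lay between positions 202837 and 204750, and MBD3 had peaks at all 4 under BPK-25 and at 3 under DMSO. At chr16:204272-204750 MBD3 stood at 7.79 times background under BPK-25 and at 14.9 under DMSO, a log2 ratio of -0.94 (-1.69 to -0.19), which was -0.66 (-1.42 to 0.09) by fold enrichment. CTCF there stood at 6.21 under BPK-25 and at 4.89 under DMSO. At chr16:203194-203746 CTCF was new under BPK-25, at 11.6 times background, and MBD3 stood at 6.23 under BPK-25 and at 5.91 under DMSO. At chr16:202837-203048 both targets were new, CTCF at 10.1 and MBD3 at 12.5 times background. At chr16:203843-204107 CTCF stood at 10.1 under BPK-25 and at 6.79 under DMSO, and MBD3 at 6.62 and 9.96. CTCF was thus higher or new under BPK-25 at all 4 sites, but the counting intervals of its log2 ratios at the shared ones held 0. The direction of MBD3 was mixed across these neighbouring sites.

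Further upstream, at chr16:162552-162827, CTCF and MBD3 were both new under BPK-25, at 11.2 and 14.4 times background. MBD3 was new at chr16:225141-225305, between the α genes, at 7.40 times background. HBM, whose promoter is printed above, had on the general map a site at chr16:215773-216402 with CTCF at 5.04 and MBD3 at 6.23 times background under BPK-25 and no peak under DMSO. At the genome background a CTCF peak was called under BPK-25 from 3.10 times background.

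TET3 had 1 peak per treatment in the α-globin window, at different positions. Under BPK-25 it lay at chr16:189669-189843, at 4.86 times background, and under DMSO at chr16:188807-188985, at 4.72. Each rested on 8 fragments, the lowest pileup called at background in those lists, with −log10 q of 1.38 under BPK-25 and 1.36 under DMSO. No DMSO peak was retained, against 31.9% of the TET3 list, and the BPK-25 peak was new, against 65.8%. The DMSO peak overlapped a site at chr16:188575-189096, at the start of NPRL3 on the general map. There CTCF stood at 13.2 times background under BPK-25 and at 8.42 under DMSO, and MBD3 at 12.9 and 12.4.

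Over the whole α-globin window, 10 of 14 CTCF peaks under DMSO were retained (71.4%, 41.9 to 91.6), against 39.2% of the list, whose share lay just outside the interval. For MBD3, 13 of 16 were retained (81.2%, 54.4 to 96.0), against 61.4% of the list. New peaks made up 20 of 31 CTCF peaks under BPK-25 (64.5%), against 83.3% of the list, and 20 of 34 MBD3 peaks (58.8%), against 78.2%. The rest, seen under DMSO too, were 35.5% for CTCF (19.2 to 54.6), against 16.7% of the list. For MBD3 they were 41.2% (24.6 to 59.3), against 21.8%. Both list shares lay outside these counting intervals. The CTCF share retained in the window fell to 5 of 12 (41.7%) with a −log10 q of at least 5. It was 4 of 9 (44.4%) with one of at least 10, and 6 of 14 (42.9%) with the longer list cut to the length of the shorter. The MBD3 share retained was 9 of 12 (75%), 6 of 10 (60%) and 9 of 16 (56.2%) in the same order. The shares of the whole lists under these settings were not computed, so whether the excess in retention holds there is not known. The 4 CTCF peaks that were not retained had 5.43 to 38.3 times background under DMSO.

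At the 10 shared CTCF sites of the α-globin window, 6 were higher under BPK-25 and 4 lower, 1 of these at 5.43 times background in both. The median was 1.38-fold, against 0.545-fold over the 38839 CTCF peaks shared in the whole lists, of which 34.0% were higher under BPK-25. These medians were not matched for peak strength. The shared α-globin CTCF peaks had a median fold enrichment of 5.31 under DMSO, against 11.3 over all CTCF peaks under DMSO. Counting intervals of the log2 ratio lay above 0 at 3 sites and below 0 at 3, and these last were the strong sites at 156727-157473, 167543-168291 and 230183-232220. By fold enrichment 2 lay above 0, at 188575-189096 and 209813-210938, and 3 below. The BPK-25 summit nearest the DMSO summit was an alternative chosen after seeing the data. With it 2 lay above 0, at 209813-210938 and 213954-214710, and 3 below. Only the site at 209813-210938 lay above 0 under every setting. At the 13 shared MBD3 sites, 9 were higher under BPK-25 and 4 lower, with a median of 1.09-fold, against 1.22-fold and 60.9% higher over the whole lists. Under either of those settings 8 of the 13 were higher. The spread of CTCF was wider than that of MBD3, with log2 ratios of -5.10 to 2.80 for CTCF and -1.17 to 1.56 for MBD3. This was not particular to the window, since the quartiles over the whole lists were -3.42 to 0.41 for CTCF and -0.38 to 1.02 for MBD3. The low end of CTCF came from the strong sites, and no MBD3 peak of the window exceeded 36.7 times background under DMSO.

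**Figure D4:**
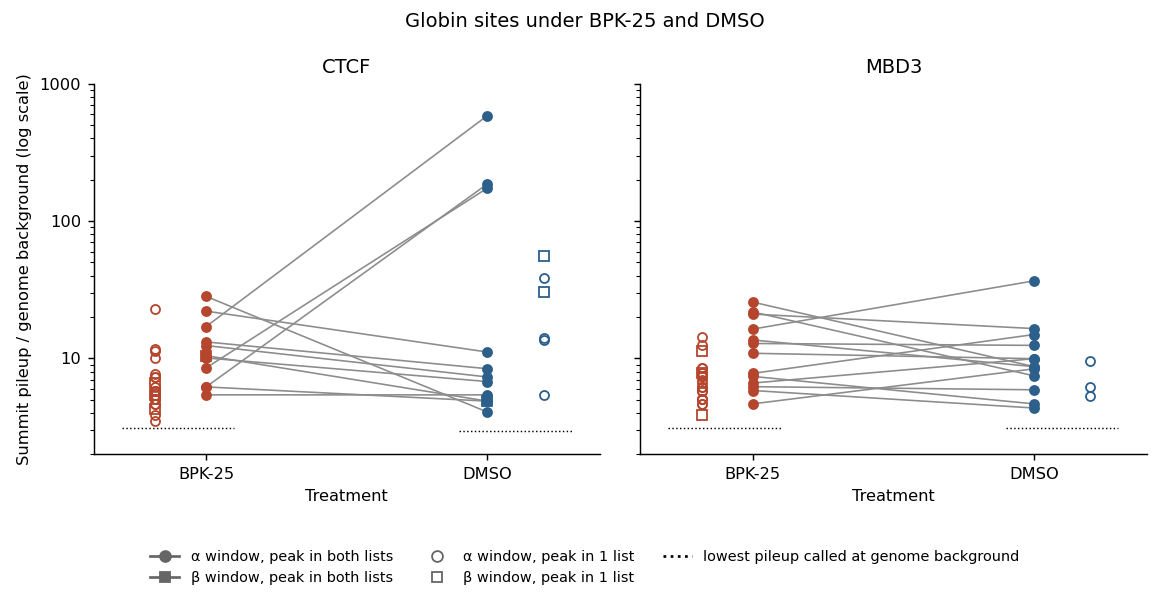
Summit pileup over the genome background (log scale) of CTCF and MBD3 at globin sites under BPK-25 (left) and DMSO (right). Lines join the summits of highest −log10 q at sites with a peak in both lists, open symbols are sites with a peak in 1 list, and the dotted lines are the lowest pileup called at the genome background. The 3 CTCF sites at 174 to 586 times background under DMSO lie at 6.21 to 17.1 under BPK-25, while MBD3 in the same window spans 4.67 to 25.7 under BPK-25 and 4.36 to 36.7 under DMSO.

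Overlap of CTCF with MBD3 was counted within each treatment. In the α-globin window 23 of 31 CTCF peaks under BPK-25 overlapped an MBD3 peak (74.2%, 55.4 to 88.1), against 69% of the list, and 9 of 14 under DMSO (64.3%, 35.1 to 87.2), against 36.9%. From the side of MBD3, 24 of 34 peaks under BPK-25 overlapped CTCF, against 69.1% of the list, and 9 of 16 under DMSO, against 43.3%. In the β-globin window 1 of 4 CTCF peaks under BPK-25 and 0 of 3 under DMSO overlapped MBD3. The list's share lay inside the counting interval of each of these shares in both windows, and no difference between the windows was tested.

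The levels of the pair were alike at sites where both were called under BPK-25. So were those of the whole lists, with medians of 7.40 times background for MBD3 and 6.98 for CTCF under BPK-25. At the 23 α-globin sites with both under BPK-25, MBD3 stood at 0.535 to 1.59 times the CTCF level (median 1.07), with a median of 29 bp between the summits. At the 9 with both under DMSO, the ratio ran from 0.0573 to 3.06 (median 1.48), with a median of 4 bp. The low end of the DMSO range was the strong CTCF site at chr16:167543-168291. The 2 targets came from the same parental line and have a common set of inputs, and how far this sets the likeness was not tested.

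Of the 45 α-globin sites, 23 had peaks under BPK-25 alone, 5 under DMSO alone and 16 in both treatments, counting CTCF and MBD3 together, and 1 held TET3 alone. In 8 sites CTCF and MBD3 were called in both treatments. Among the sites with peaks under BPK-25 alone, 9 carried both targets and 14 a single one. New CTCF peaks had a median fold enrichment of 3.49 (2.46 to 14.8) and new MBD3 peaks one of 3.78 (2.79 to 6.31). Under BPK-25 the window held 1 MBD3 peak with a fold enrichment of 10 or more, that at chr16:222941-223588, and 0.932% of the MBD3 list under BPK-25 reached 10.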

How the data were processed

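ChIP-seq peaks of 5 targets in HEK293T cells were read from 10 deposited lists, 1 per target and treatment, covering 29 immunoprecipitates with 24 inputs per the labels. The submitters' processing notes name MACS2 2.1.2, Bowtie2 2.3.4, SAMtools 1.9, bedtools 2.25.0, FastQC 0.11.7 and hg19, without a role or parameters. Each row of the deposited lists holds a score, a fold enrichment, which is the ratio of pileup to local background at the summit, the −log10 p-value, the −log10 q-value and the summit's offset, all as the authors' peak caller wrote them. The lists hold values above a q-value limit, so a site without a peak has no measured level. The TET2 list under DMSO is named for 3 replicates while the labels describe 2.

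Overlapping or touching intervals of a list were merged, keeping the values of the summit with the highest −log10 q. Pileup n and local background were computed from the Poisson −log10 p and the fold enrichment, read as (n + 1) over (background + 1). Of pileups below 200, 100% were whole numbers to within 0.02, and the step was checked on simulated data. The lowest local background of a list served as its genome background. A DMSO peak counted as retained where at least 1 bp of it was covered by that target's BPK-25 list, a BPK-25 peak as new where it overlapped no DMSO peak, and a peak as strong with a fold enrichment of 10 or more. Intervals of shares are exact Clopper-Pearson 95% intervals and hold counting error alone; the interval of a log2 ratio is an approximation from the 2 pileups. With 1 pooled list per group no test was possible. Named with values were sites with a strong CTCF peak under DMSO or any TET peak, and per window the 3 MBD3 sites of highest −log10 q in each treatment and the 3 highest new CTCF or MBD3 peaks; the remaining sites named are those of the globin genes, chosen after their values were seen. The genes, windows and rules were chosen with earlier results of these data known. No hg19 sequence or annotation was used. Python 3.11.15, numpy 2.4.6, scipy 1.17.1, pandas 2.3.3 and matplotlib 3.10.9 were used.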

Additional observations from a re-analysis of the deposited data

How the results depend on the processing

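Of 148 recomputed values of 27 results, 119 stayed within the counting interval (numbers of peaks within 1.5 times, median log2 ratios within 1 SD over sites) and 29 moved. The order of the treatments in peak number did turn in some settings, as given below, and so did the MBD3 ratio at chr16:226062-227438, with log2 0.35 at the highest summits, -0.37 by fold enrichment and -0.45 at the nearest summits. With a −log10 q of at least 5, the α-globin window held 12 CTCF and 22 MBD3 peaks under BPK-25, against 12 and 12 under DMSO, and TET3 had 0 in both. With a −log10 q of at least 10, CTCF had 8 and 9 and MBD3 8 and 10 (BPK-25, then DMSO), and TET3 0 and 0. With equal numbers, that is the longer list cut to as many of its strongest peaks as the shorter list holds, CTCF had 10 and 14, MBD3 12 and 16, and the TET3 peak under DMSO dropped out (0). The CTCF share retained in the α-globin window was 41.7% with a −log10 q of at least 5. It was 44.4% with one of at least 10 and 42.9% with equal numbers, both just inside the counting interval of 41.9 to 91.6. The CTCF share new there was 40% with equal numbers, and the MBD3 share new was 12.5% with a −log10 q of at least 10 and 16.7% with equal numbers. The cause was not tested.

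In the β-globin window CTCF under BPK-25 kept 1 peak with a −log10 q of at least 5, with one of at least 10 and with equal numbers, against 3 under DMSO with equal numbers, and MBD3 under BPK-25 kept 1 under the last 2. The CTCF share retained was 0% with a −log10 q of at least 10. The CTCF share new was 0% at 5, 100% at 10, 0% with equal numbers and 100% with at least 50% of the peak covered. The CTCF share with MBD3 under BPK-25 was 100% at both limits. These shares rest on at most 4 peaks. Merging intervals within 500 bp, requiring the summit inside the window, and summits within 200 bp moved none of the results they were applied to. The median log2 ratio over shared α-globin sites ran from 0.18 to 0.54 for CTCF and from 0.08 to 0.28 for MBD3.

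No paired analysis was possible because each group has 1 pooled list, and leaving out a replicate could not be run for the same reason. Depth limits weak peaks: at the genome background CTCF was called from 8 fragments under BPK-25 and from 11 under DMSO, 3.10 and 2.99 times background.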
